A study of Mus musculus with 12 samples.

Results

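The mitogen-activated protein (MAP) kinases and the kinases above them were taken from a study of alcohol-fed mice. Members are all protein-coding genes of the deposited table whose symbol is Mapk, Map2k, Map3k, Map4k or Mapkapk followed only by a number. The rule found 46 genes among the 54232 gene IDs of the table, and 42 of them passed the filter on low counts and were tested, among 14168 genes in all. MAP kinases form relays in which a MAP3K phosphorylates a MAP2K and the MAP2K phosphorylates a MAP kinase, with MAP4Ks further upstream and MAPKAPKs, the MAP kinase-activated protein kinases, below. The ERK branch answers mainly to growth factors, while the JNK and p38 branches answer to stress, endotoxin and cytokines, and in alcohol-associated liver disease JNK and p38 signalling have been studied in hepatocytes and macrophages. MAP kinase phosphatases such as MKP1 (gene name Dusp1), the enzyme the study is about, remove the activating phosphates, and MKP1 acts on the MAP kinases themselves. Transcript levels alone were measured, and the phosphorylation that sets the activity of these enzymes cannot be read from them.

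RNA of whole liver was sequenced from male C57BL6/J mice of the intragastric model of alcohol-associated steatohepatitis (ASH), given as 8-week mice in the labels, with 1 library per mouse. The 5 pair-fed (PF) controls received an isocaloric high-fat liquid diet through the gastric tube for 8 weeks. The 7 alcohol-fed (AF) mice received a high-fat liquid diet with ethanol, raised to 27 g/kg/day, and a weekly binge of 5 g/kg. The methods also give a solid Western diet, rich in cholesterol and saturated fat, that was eaten freely beside the tube feeding, and the labels name no engineered allele. The libraries held between 24129900 and 30578639 reads on genes. Values are given as CPM (counts scaled to a library of a standard size) with TMM factors, and levels of different genes are compared only as RPKM, the CPM per kilobase of merged exons. The scaling factors lay between 0.832 and 0.901 in PF and between 0.880 and 1.36 in AF livers.

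Of the 42 tested members, 8 were higher and 8 were lower in AF than in PF livers (edgeR, adjusted p under 0.05), and 26 did not pass the test. Higher were Map4k4, Map3k11, Map3k12, Map3k14, Mapk3, Mapk7, Mapkapk2 and Mapkapk3. Lower were Map4k5, Map3k2, Map3k7, Map3k13, Map2k1, Map2k4, Mapk8 and Mapk15. The share of members past the threshold, 38.1%, was close to the 39.8% of all tested genes, with 22.0% of all genes higher and 17.8% lower, so the number of changed members says nothing particular about this family. The groups did not overlap for 8 members (3 with all AF livers above and 5 with all below) or 19.0% of those tested, against 17.7% of all genes. What could be described was which members changed, and by how much. The median log2 fold change of the members was 0.01 and that of all genes 0.04. By tier, the MAPKAPKs had 2 of 3 members higher and none lower, and the MAP2Ks had none of 7 higher and 2 lower. At an unadjusted p under 0.05 and with DESeq2, the counts were also 0 for lower MAPKAPKs and for higher MAP2Ks. With library totals Map2k2 passed as higher. With an offset for GC content and length of the genes, Map2k3 and Map2k7 also passed as lower and Mapkapk2 no longer passed. Among the MAP4Ks, 1 of 5 was higher and 1 lower, among the tested MAP3Ks 3 of 16 in each direction, and among the tested MAP kinases 2 of 11 in each direction.

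**Figure D1:**
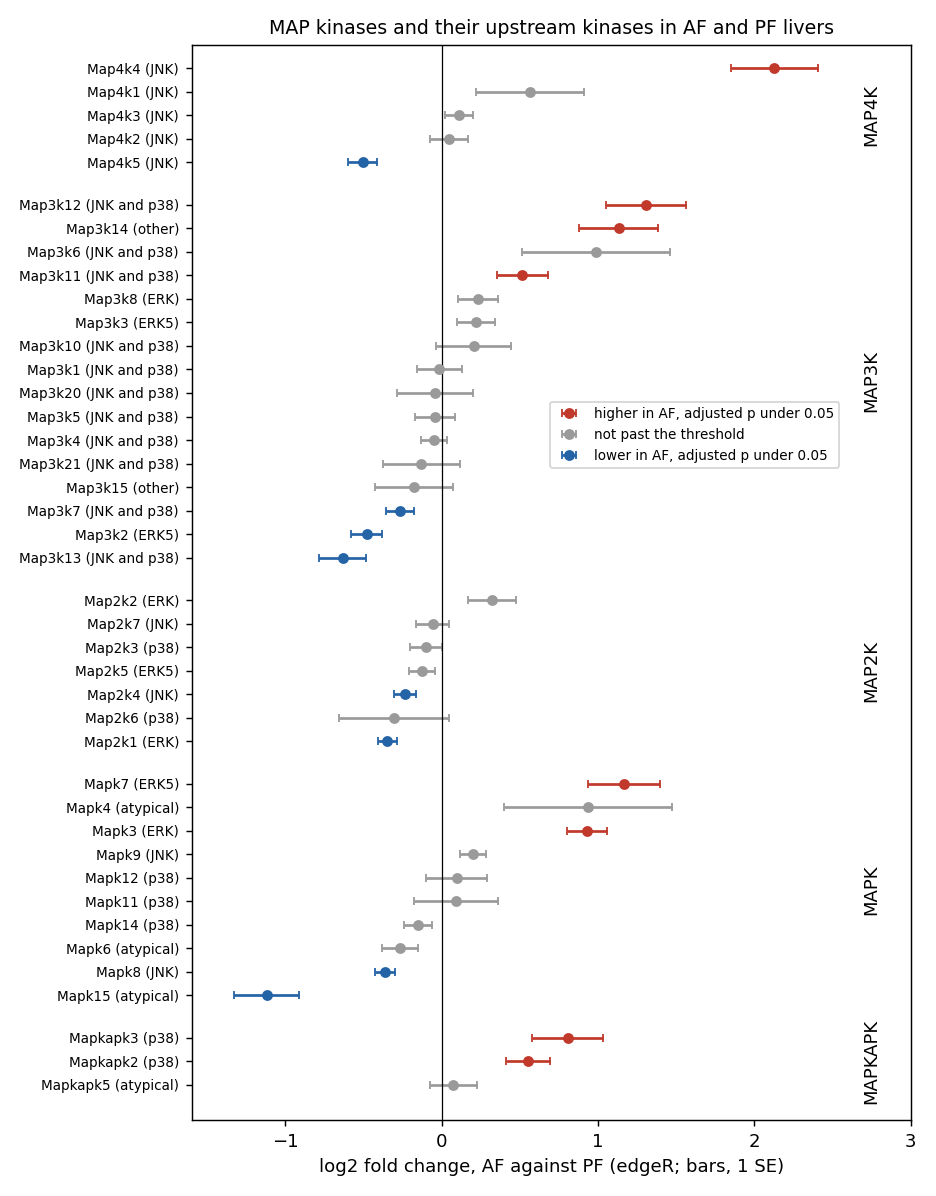
The log2 fold change of AF against PF (x axis, bars of 1 SE) is drawn for tested members, ordered by tier from MAP4K to MAPKAPK, with the branch in parentheses and the colour giving the call. Map4k4 stands alone at 2.13, the MAP2Ks lie between -0.35 and 0.32, and Mapk15 is the lowest at -1.12.

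The scaling of the libraries bears on the direction of the smaller changes. With library totals in place of TMM factors, the median of all genes moved up by 0.36 on the log2 scale, and 16 members were then higher and 1, Mapk15, was lower. Relative to the median of all genes, the log2 fold changes of the 42 members differed by at most 0.10 between the 2 scalings. The fold changes that follow use TMM, and a small fall is a fall relative to most other genes. Under each of the 24 alternatives, 7 of the 16 members kept their call, namely Mapk3, Mapk7, Map3k12, Map3k14, Map4k4 and Mapkapk3 (higher) and Mapk15 (lower). In whole tissue, fewer cells of a type and less RNA per cell cannot be told apart.

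Among the MAP kinases, Mapk3, which encodes ERK1 (chr7:126759601-126765819 on GRCm38, plus strand), rose. It stood at 35.5, 29.1, 25.3, 25.4 and 25.2 CPM in the PF livers. In the AF livers it ranged from 42.8 to 63.9 CPM, with a median of 52.0. All 7 AF livers lay above all PF livers, and the log2 fold change was 0.93 ± 0.13 (SE, adjusted p = 0.000235), a 1.90-fold rise. Per length it went from 12.4 RPKM ± 1.98 (SD, n = 5) in PF to 23.7 RPKM ± 3.80 (n = 7) in AF livers. The call was kept under all 24 alternatives, with log2 fold changes from 0.73 to 1.31.

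The JNK pair shifted in favour of JNK2. Mapk8 encodes JNK1 (chr14:33377898-33447158, minus strand), and Mapk9 encodes JNK2 (chr11:49846751-49886421, plus strand). Mapk8 stood at 26.7, 26.2, 27.3, 29.0 and 28.1 CPM in PF livers. In AF livers it ranged from 19.9 to 23.8 CPM, with a median of 20.96. All AF values lay below all PF values, with a log2 fold change of -0.36 ± 0.07 (adjusted p = 0.00123). This call was lost once GC content and length of the genes entered as an offset (-0.12, adjusted p = 0.247) and with library totals (0.0045, adjusted p = 0.979), and kept under the other 22 alternatives, with adjusted p from 6.99e-08 upward. Mapk9 stood at 68.7, 68.4, 75.4, 79.9 and 73.2 CPM in PF livers and ranged from 76.1 to 99.0 CPM in AF livers, with a median of 84.1. Although 5 of 7 AF livers lay above all PF livers, the log2 fold change of 0.20 ± 0.08 did not pass the test (adjusted p = 0.0651). It passed with upper-quartile factors (0.26, adjusted p = 0.0221), with the offset (0.28, adjusted p = 0.00712) and with library totals (0.56), and adjusted p ranged from 0.00271 to 0.151 over the 24 alternatives. Mapk10, which encodes the JNK3 of neurons, was at 0 counts in all 12 libraries.

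A ratio of 2 genes of the same library does not depend on the scaling factor. Within a liver, the ratio of Mapk9 to Mapk8 per length (geometric means) was 4.49 in PF and 6.63 in AF, and the log2 ratio was 0.56 higher in AF without overlap of the groups (exact two-sided permutation test over all splits of the 12 livers, p = 0.00126, adjusted over 7 ratios p = 0.00442). With the trend in GC content and length removed from each library, a step chosen after seeing the data, the difference was 0.39 (exact permutation test, adjusted over 6 ratios p = 0.00758). The summed JNK level was 13.2 RPKM ± 0.80 in PF and 14.3 RPKM ± 1.19 in AF livers, and JNK1 supplied 18.2% ± 0.50 of it in PF and 13.1% ± 0.71 in AF livers.

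Among the p38 kinases, Mapk14, which encodes p38α (chr17:28691329-28748406, plus strand), was the most abundant of all members at 24.8 RPKM ± 3.24 in PF livers. It stood at 104, 132, 108, 106 and 93.1 CPM in PF livers. In AF livers it ranged from 88.1 to 105 CPM, with a median of 98.7, inside or just under the PF range. The log2 fold change was -0.15 ± 0.09 (adjusted p = 0.183), and only with the GC and length offset among the alternatives did it pass the test (-0.27, adjusted p = 0.0266, with a range from there to 0.479). Mapk14 made up 95.5% of the summed p38 RPKM in PF and 94.6% in AF livers. Mapk11 (p38β) and Mapk12 (p38γ) gave 0.36 and 0.68 RPKM in PF livers and log2 fold changes of 0.09 each, neither past the test. Mapk13 (p38δ), with a summed count of 40 in PF and 115 in AF libraries, was under the count filter and did not pass in the 6 alternatives that tested it (0.19 to 0.47 on the log2 scale), and its ratio to Mapk14 did not pass the test (log2 difference 0.25, exact permutation test, adjusted p = 0.745).

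Of the remaining MAP kinases, Mapk7 rose and Mapk15 fell. Mapk7 encodes ERK5, a large kinase with a transcriptional domain (chr11:61488812-61494406, minus strand). It stood at 0.984, 0.961, 1.25, 1.61 and 1.45 CPM in PF livers and between 1.71 and 3.80 CPM in AF livers, with a median of 2.78. All AF livers lay above all PF livers, with a log2 fold change of 1.16 ± 0.23 (adjusted p = 0.00201). Its summed counts were 144 in PF and 626 in AF libraries, and 89 exon bases are shared with Mfap4 on the opposite strand, a gene at 0.748 CPM in PF and 1.57 CPM in AF livers. Mapk15, an atypical MAP kinase also called ERK7 (chr15:75993769-75999154, plus strand), moved the other way. It stood at 2.56, 2.88, 2.63, 2.04 and 2.40 CPM in PF livers and between 0.830 and 1.81 CPM in AF livers, with a median of 1.03. All AF livers lay below all PF livers, and the log2 fold change was -1.12 ± 0.21 (adjusted p = 0.00143), the largest fall among the members. Of the atypical kinases Mapk6 (ERK3) and Mapk4 (ERK4), Mapk6 gave -0.27 ± 0.12 (adjusted p = 0.0808, with a range from 0.00541 to 0.628) and passed as lower without PF2, without AF6, with voom sample weights and in the block fit, which leaves out AF6 and AF7. Mapk4, at 0.12 RPKM in PF livers, gave 0.94 ± 0.54 (adjusted p = 0.177). Without AF6, its highest liver, the value was 0.41, in the block fit it was 0.14, and with library totals it passed (1.19).

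**Figure D2:**
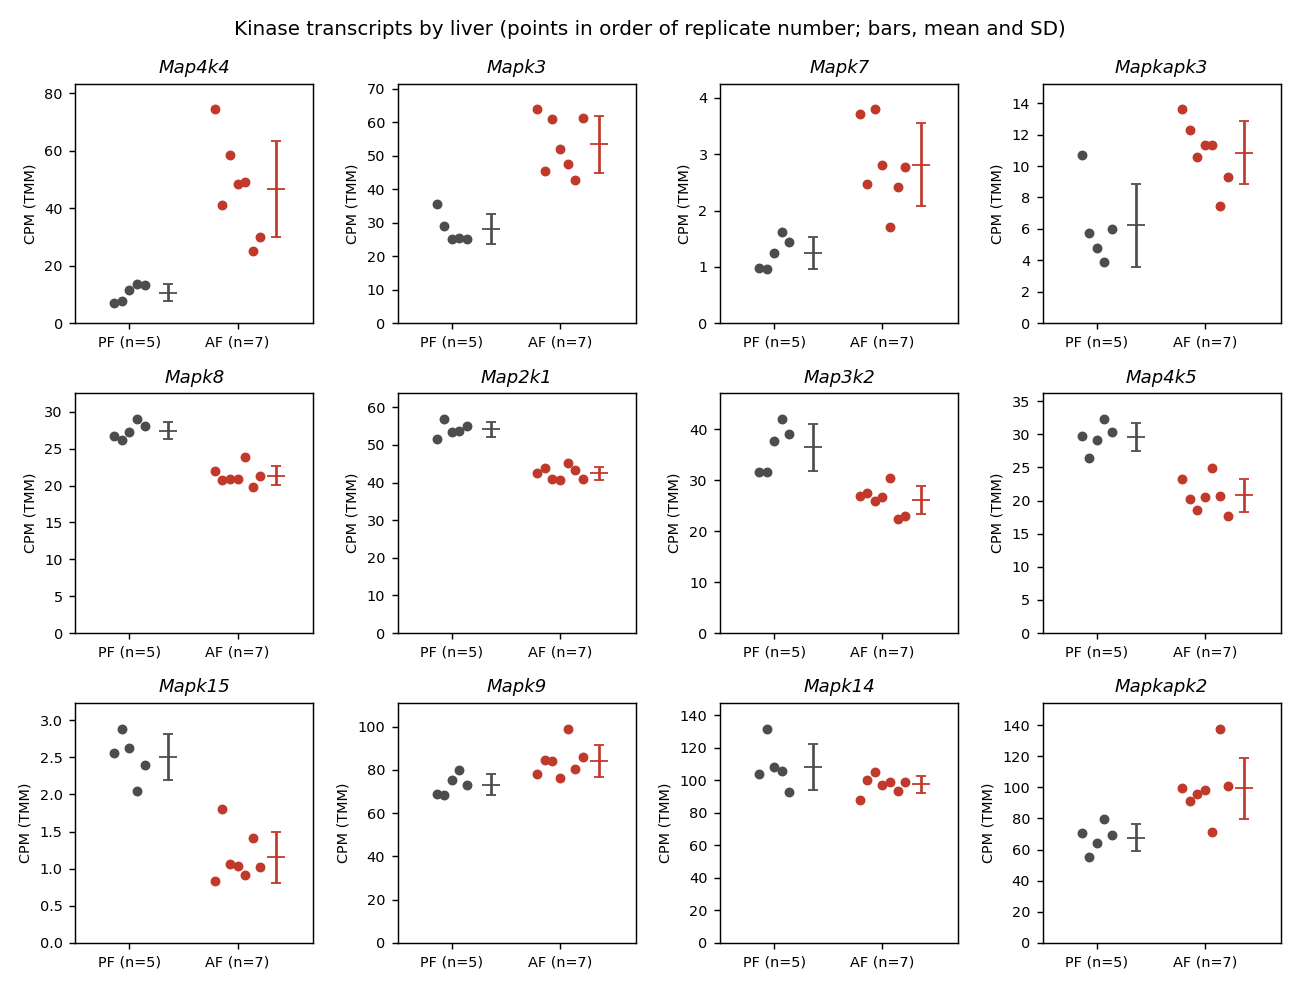
Each point is the CPM of a gene in a single liver (y axes from 0, PF in grey with n = 5, AF in red with n = 7), with the mean and SD drawn at the right of each group. Map4k4, Mapk3 and Mapk7 lie higher in all AF livers, Mapk8, Map2k1, Map3k2, Map4k5 and Mapk15 lie lower in all AF livers, and Mapk9, Mapk14, Mapkapk2 and Mapkapk3 overlap.

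Of the MAP2Ks, none passed the test as higher with TMM factors. Map2k1 encodes MEK1, an activator of ERK (chr9:64185770-64253631, minus strand). It stood at 51.5, 56.9, 53.4, 53.8 and 54.9 CPM in PF livers and between 40.8 and 45.2 CPM in AF livers, with a median of 42.6. All AF values lay below all PF values by a wide gap, with a log2 fold change of -0.35 ± 0.06 (adjusted p = 0.000957). With library totals the value was 0.015 (adjusted p = 0.915), and in the other 23 alternatives the call was kept. Map2k2 encodes MEK2, the other ERK activator, and did not pass the test, at 21.4 CPM ± 3.19 in PF and 26.8 CPM ± 5.99 in AF livers (log2 fold change 0.32 ± 0.15, adjusted p = 0.110). With library totals it passed (0.67, adjusted p = 0.00255), and with the GC and length offset it was at -0.034 (adjusted p = 0.851). The ratio of Map2k2 to Map2k1 per length was 0.235 in PF and 0.369 in AF. Its log2 value was 0.65 higher in AF (exact permutation test, p = 0.00758, adjusted p = 0.0177). Removal of the GC and length trend left a difference of 0.32 that no longer passed (exact permutation test, adjusted p = 0.0833).

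Map2k4 (MKK4), an activator of JNK, fell by 0.24 on the log2 scale (adjusted p = 0.0214), from 62.3 CPM ± 4.03 in PF to 52.9 CPM ± 3.48 in AF livers. Its call was lost without PF4 (-0.22, adjusted p = 0.0508), with upper-quartile factors (-0.18), with a filter at 1 count in any library (-0.22), with the replicate number as a block, a fit without AF6 and AF7 (-0.20), and with library totals (0.13), and adjusted p ranged from 0.00155 to 0.401 over the alternatives. Map2k7 (MKK7), the second JNK activator, gave -0.06 ± 0.10 (adjusted p = 0.677), and shares 1349 exon bases with Gm49320, which was at 0. The ratio of Map2k7 to Map2k4 did not pass the test (log2 difference 0.17, exact permutation test, adjusted p = 0.402). Map2k3 (MKK3) and Map2k6 (MKK6), which activate p38, gave -0.10 ± 0.10 and -0.31 ± 0.35. Map2k3 was the more abundant of the pair, with 18.6 RPKM against 1.29 RPKM in PF livers, and their ratio did not pass the test either (-0.26, exact permutation test, adjusted p = 0.711). Map2k5 (MEK5), the activator of ERK5, gave -0.13 ± 0.08 (adjusted p = 0.244). The summed MAP2K level was 62.0 RPKM ± 3.96 in PF and 55.4 RPKM ± 2.23 in AF livers.

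**Figure D3:**
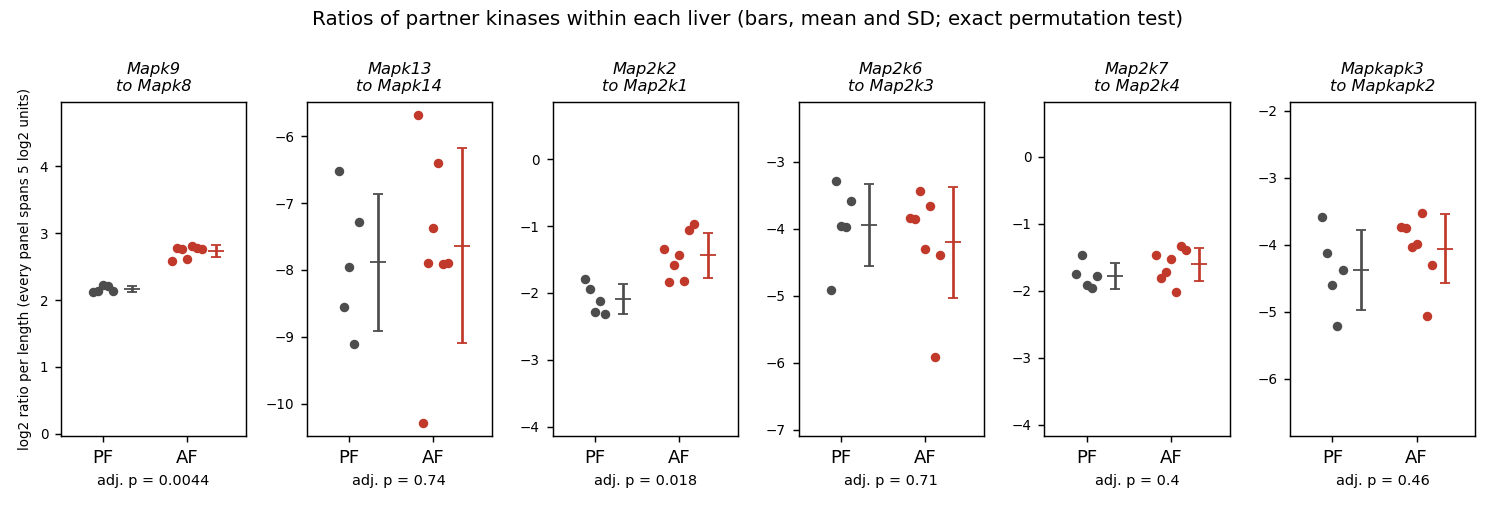
The log2 ratio of partner kinases per exon length in each liver is shown for 6 pairs (PF in grey, AF in red, bars are the mean and SD, every y axis spans 5 log2 units). The ratio of Mapk9 to Mapk8 separates the groups completely, Map2k2 to Map2k1 is higher in AF with a small overlap, and the other 4 ratios overlap widely.

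The sequences before the starts of the JNK and MEK genes are shown because within both pairs 1 gene was called lower and its partner was not called. Map2k4 (called lower) and Map2k7 (not called) form another such pair, and their windows are not printed because they held no match to any motif searched. They are the 250 bases upstream of the start in the RefSeq promoter table (GRCm38.p6), read along the gene's strand. Capitals mark matches, on either strand, to GGGCGG (an Sp1-type box) or CCAAT, the motifs found in them. TGANTCA (AP-1), TGACGTCA (CRE) and CCGGAAG (ETS-type) were also searched, and none of the 5 motifs contains another.
Mapk8, chr14:33447159-33447408, minus strand: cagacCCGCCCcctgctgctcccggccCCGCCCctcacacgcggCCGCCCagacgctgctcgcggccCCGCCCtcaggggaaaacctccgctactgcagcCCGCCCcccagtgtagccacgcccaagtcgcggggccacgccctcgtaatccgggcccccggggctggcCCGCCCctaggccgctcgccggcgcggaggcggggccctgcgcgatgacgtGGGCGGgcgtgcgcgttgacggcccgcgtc
Mapk9, chr11:49846501-49846750, plus strand: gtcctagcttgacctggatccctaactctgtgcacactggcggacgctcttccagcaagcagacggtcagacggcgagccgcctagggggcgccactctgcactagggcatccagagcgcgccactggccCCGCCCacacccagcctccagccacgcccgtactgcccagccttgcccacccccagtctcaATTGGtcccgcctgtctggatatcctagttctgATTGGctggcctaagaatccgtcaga
Map2k1, chr9:64253606-64253855, minus strand: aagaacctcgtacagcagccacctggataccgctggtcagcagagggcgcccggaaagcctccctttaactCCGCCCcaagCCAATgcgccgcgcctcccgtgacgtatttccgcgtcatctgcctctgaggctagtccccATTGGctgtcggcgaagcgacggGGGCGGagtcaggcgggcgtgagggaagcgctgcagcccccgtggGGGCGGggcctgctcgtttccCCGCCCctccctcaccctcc
Map2k2, chr10:81105665-81105914, plus strand: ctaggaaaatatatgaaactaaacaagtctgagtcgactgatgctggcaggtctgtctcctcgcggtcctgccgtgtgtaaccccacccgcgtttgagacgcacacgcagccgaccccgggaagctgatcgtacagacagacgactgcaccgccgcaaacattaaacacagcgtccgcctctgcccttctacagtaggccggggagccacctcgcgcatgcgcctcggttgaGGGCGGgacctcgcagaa
The window of Mapk8 had 79.2% GC and 7 GGGCGG matches, and that of Mapk9 had 63.6% GC, 1 GGGCGG and 2 CCAAT matches. The window of Map2k1 had 68.4% GC with 4 GGGCGG and 2 CCAAT matches, and that of Map2k2 had 59.6% GC with 1 GGGCGG match. No relation between matches and calls is read from these pairs, since Map2k4 and Map2k7 each had 0 GGGCGG matches. A window was found for 37 of the 46 members, counting that of Map3k13, which lay 97623 bases from its GENCODE start. GGGCGG was in 62.2% of these and in 32.7% of all 32851 windows of the table, CCAAT in 27.0% and 33.8%, TGANTCA in 5.41% and 6.75%, TGACGTCA in 2.70% and 1.55%, and CCGGAAG in 8.11% and 6.91%. These are matches of letters and not sites of binding. Each member gave 1 window, the nearest to its GENCODE start, while every window of the table was counted for the other share. All windows of the table had a median GC content of 52.4%, against 59.6% to 79.2% in the windows printed here. The shares were not compared at equal GC content.

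Among the MAP3Ks, Map3k12 (DLK) and Map3k14 (NIK) rose most. Map3k12, a kinase of the JNK route, went from 0.805 CPM ± 0.139 in PF to 1.99 CPM ± 0.613 in AF livers (log2 fold change 1.31 ± 0.26, adjusted p = 0.00196), with 6 of 7 AF livers above all PF livers. Its exons share 1573 bases with Pcbp2 on the opposite strand, a gene at 229 CPM in PF and 209 CPM in AF livers that did not pass the test (-0.13, adjusted p = 0.266). The strand setting of the counting is not stated, so the source of the few Map3k12 reads (92 in PF and 452 in AF libraries) is uncertain. Map3k14, the kinase of the non-canonical NF-κB route rather than of a MAP kinase cascade, went from 1.97 CPM ± 0.368 to 4.33 CPM ± 1.43 (1.13 ± 0.25, adjusted p = 0.00415). AF5, at 2.00 CPM, was the AF liver within the PF range. Map3k11 (MLK3), activated by Rac and Cdc42, went from 6.83 CPM ± 0.667 to 9.76 CPM ± 2.18 (0.51 ± 0.16, adjusted p = 0.0237). AF5, at 5.96 CPM, went the other way and lay under the lowest PF liver (6.13 CPM), and the other 6 AF livers lay above all PF livers. This call was lost without PF3, PF4 or PF5 (0.47 to 0.51), with the block fit that also leaves out AF6 and AF7 (0.35), with limma-voom (0.48) and with the GC and length offset (0.11, adjusted p = 0.531), and the lowest adjusted p among the alternatives was 0.00157.

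Lower among the MAP3Ks were Map3k2, Map3k7 and Map3k13. Map3k2 encodes MEKK2, an activator of the ERK5 route (chr18:32163089-32236751, plus strand). It stood at 31.6, 31.7, 37.6, 41.96 and 39.1 CPM in PF livers and between 22.3 and 30.3 CPM in AF livers, with a median of 26.7. The groups did not overlap, with a log2 fold change of -0.48 ± 0.10 (adjusted p = 0.00246). Map3k13 (LZK), a relative of Map3k12, went the opposite way from it, from 28.5 CPM ± 4.67 in PF to 18.4 CPM ± 3.62 in AF livers (-0.63 ± 0.15, adjusted p = 0.00562). It shares 227 exon bases with the lincRNA 1300002E11Rik on the same strand, which rose by 0.39 on the log2 scale. Map3k7 encodes TAK1, through which TNF, IL-1 and toll-like receptors reach JNK, p38 and NF-κB. It was at 58.5 CPM ± 5.79 in PF and 48.6 CPM ± 4.37 in AF livers (-0.27 ± 0.09, adjusted p = 0.0268). Its call was lost when PF3, PF4, AF1, AF3 or AF4 was left out (-0.25 to -0.23, adjusted p between 0.0502 and 0.0706), and with upper-quartile factors (-0.21), the filter at 1 count in any library (-0.26), the block without AF6 and AF7 (-0.28), library totals (0.086) and the GC and length offset (-0.17), with adjusted p from 0.00170 to 0.549 over the alternatives.

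The other 10 tested MAP3Ks did not pass. Map3k5 (ASK1), the thioredoxin-controlled kinase of oxidative stress, was at 38.8 CPM ± 7.23 in PF and 37.6 CPM ± 5.22 in AF livers (log2 fold change -0.04 ± 0.13, adjusted p = 0.804). Its partner Map3k6 (ASK2) was low and uneven, at 0.934 CPM ± 0.541 and 1.83 CPM ± 1.26 (0.99 ± 0.48, adjusted p = 0.113). Map3k1 (MEKK1) and Map3k4 (MEKK4) gave -0.02 ± 0.14 and -0.05 ± 0.09. Map3k8 (TPL2), the activator of MEK1 downstream of toll-like receptors, gave 0.23 ± 0.13 (adjusted p = 0.173). Map3k3 (MEKK3), Map3k10 (MLK2), Map3k15 (ASK3), Map3k20 (ZAK) and Map3k21 (MLK4) lay between -0.18 and 0.22. For Map3k9 (MLK1), 10 counts in PF and 64 in AF libraries, and for Map3k19, 10 and 12 counts, were under the count filter. Under the filter at 1 count in any library neither passed, Map3k9 with a log2 fold change of 1.61 ± 0.59 (adjusted p = 0.0635) and 6 of 7 AF livers above all PF livers, and Map3k19 with -0.60 ± 0.62 (adjusted p = 0.506).

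The MAP4Ks held the largest change of all members. Map4k4 encodes HGK, a Ste20-type kinase upstream of JNK (chr1:39900913-40026310, plus strand). It stood at 7.04, 7.78, 11.4, 13.7 and 13.4 CPM in PF livers. In the AF livers it was 74.4 in AF1, 41.2 in AF2, 58.4 in AF3, 48.3 in AF4, 49.0 in AF5, 25.2 in AF6 and 29.9 in AF7. The lowest AF liver thus lay well above the highest PF liver. The log2 fold change was 2.13 ± 0.28 (adjusted p = 0.000136), a 4.37-fold rise, and among the 3116 genes higher in AF livers 374 rose more. Map4k5 (KHS) fell (chr12:69803750-69893200, minus strand). It stood at 29.7, 26.4, 29.1, 32.3 and 30.4 CPM in PF and between 17.7 and 24.8 CPM in AF livers, with a median of 20.5. The groups did not overlap, and the log2 fold change was -0.51 ± 0.09 (adjusted p = 0.00121). It shares 548 exon bases with Atl1 on the opposite strand, at 1.68 CPM in PF and 1.73 CPM in AF livers. Map4k3 (GLK), Map4k2 and Map4k1 (HPK1, a kinase of blood cells) gave 0.11 ± 0.09, 0.05 ± 0.12 and 0.56 ± 0.35 and did not pass. Per length, Map4k4 stood at 1.11 RPKM ± 0.325 in PF livers, under Map4k3 (3.69), Map4k5 (3.43) and Map4k2 (1.28). In AF livers it was the highest MAP4K at 4.87 RPKM ± 1.75, ahead of Map4k3 at 3.98 RPKM ± 0.375. In the AF livers the values of Map4k4 and Map4k3 overlapped in spread, and the order of that pair was not tested.

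Among AF livers, the highest value and the 2 lowest values of Map4k4 fell in the same livers as those of 3 marker lists, but not as those of the Kupffer cell list. Map4k4 was highest in AF1, where the summed recruited macrophage markers (606 CPM), stellate cell and fibroblast markers (516 CPM) and bile duct markers (68.6 CPM) were also highest. It was lowest in AF6 and AF7, which had the lowest sums of macrophage markers (67.2 and 113 CPM), stellate cell markers (159 and 253 CPM) and bile duct markers (7.37 and 6.23 CPM) among AF livers and the highest sums of hepatocyte markers (94342 and 96241 CPM). The Kupffer cell markers ran differently, with AF1 the lowest of the AF livers at 797 CPM, AF6 at 1241 CPM and AF7 at 1455 CPM. Across all tested genes, 22.0% were higher and 17.8% lower in AF livers. Of the marker lists, 5 of 8 recruited macrophage genes, 6 of 8 stellate cell and fibroblast genes, 5 of 5 tested bile duct genes and 4 of 7 Kupffer cell genes were higher in AF livers, and 3 of 8 hepatocyte genes were lower. Their sums ranged from 28.5 to 77.6 CPM in PF and 67.2 to 606 CPM in AF livers for recruited macrophages, from 82.0 to 177 and 159 to 516 CPM for stellate cells and fibroblasts, from 3.93 to 7.56 and 6.23 to 68.6 CPM for bile ducts, from 634 to 868 and 797 to 2476 CPM for Kupffer cells, and from 90494 to 133078 and 48602 to 96241 CPM for hepatocytes. Single genes weighed heavily in some sums. In the hepatocyte list, Alb averaged 89801 CPM in PF and 59186 CPM in AF livers and did not pass the test (edgeR, adjusted p = 0.164). In the recruited macrophage list, Gpnmb averaged 0.645 CPM in PF and 139 CPM in AF livers. None of 7 neutrophil genes and none of 5 tested B cell genes passed the test (edgeR). At an unadjusted p under 0.05, 2 neutrophil and 3 B cell genes were lower, and with DESeq2 2 neutrophil genes were lower and 0 B cell genes. Of the 8 hepatocyte genes, 5 were lower at an unadjusted p under 0.05 and 6 with DESeq2. PF1 stood apart in the neutrophil sum, at 758 CPM against 53.4 to 195 CPM in the other PF livers and 47.1 to 175 CPM in AF livers, and without it no neutrophil gene was lower at an unadjusted p under 0.05 (edgeR). Of 7 tested T and NK cell genes 1 was lower, of 7 sinusoidal endothelium genes 1 was higher, and of 5 tested red blood cell genes 1 was lower. That red blood cell gene was Alas2 (log2 fold change -1.70), and the other 4 did not pass. At an unadjusted p under 0.05, 3 red blood cell genes were higher (edgeR), and the median of that list was 0.84. No gene of these lists was at 0 in all libraries, and the hepatocyte markers were abundant in every liver. The part of these cell types in the changes of Map4k4 and of the other members was not tested.

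**Figure D4:**
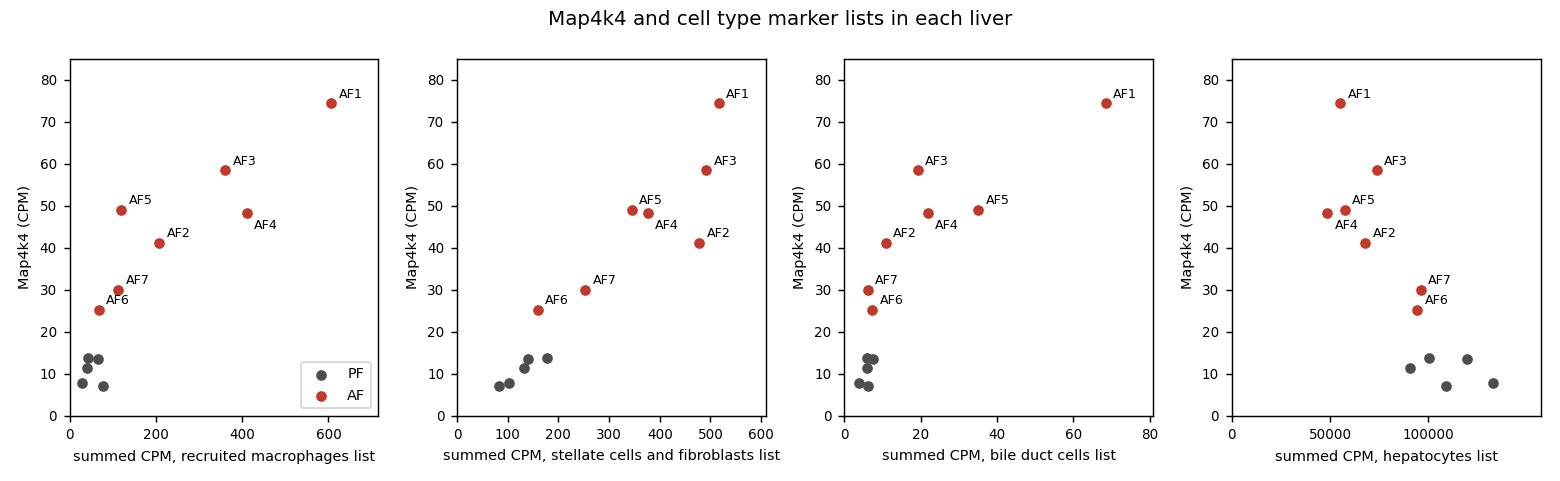
Map4k4 (y axes, CPM) is plotted against the summed CPM of 4 marker lists (x axes) for every liver, PF in grey and AF in red with the liver's name. AF1 has the highest Map4k4 value, 74.4 CPM, and the highest macrophage, stellate cell and bile duct sums, and AF6 and AF7 lie closest to the PF livers in each panel.

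Below the MAP kinases, both p38-activated kinases rose. Mapkapk2 encodes MK2, which controls the stability and translation of cytokine mRNAs, and was the second most abundant member per length in PF livers at 22.3 RPKM ± 2.92. It went from 67.7 CPM ± 8.89 in PF to 99.2 CPM ± 19.7 in AF livers (0.55 ± 0.14, adjusted p = 0.00800), with 6 of 7 AF livers above all PF livers. AF6 was the highest at 138 CPM, and AF5 was within the PF range at 71.3 CPM. The GC and length offset left 0.32 (adjusted p = 0.0752), and the call was kept in the other 23 alternatives, down to an adjusted p of 0.000440. Mapkapk3 (MK3) went from 6.23 CPM ± 2.63 to 10.9 CPM ± 2.00 (0.81 ± 0.23, adjusted p = 0.0132). PF1, at 10.7 CPM, lay among the AF livers, and the other PF livers lay between 3.89 and 6.02 CPM. The ratio of Mapkapk3 to Mapkapk2 did not pass the test (log2 difference 0.32, exact permutation test, adjusted p = 0.465). Mapkapk5 (MK5), a partner of ERK3 and ERK4, gave 0.07 ± 0.15 (adjusted p = 0.716), and since it shares 1805 exon bases with Adam1a on the same strand its counts are uncertain. The summed MAPKAPK level was 24.2 RPKM ± 2.91 in PF and 35.4 RPKM ± 6.36 in AF livers.

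Every branch held at least 1 called member, where 39.8% of all tested genes passed (22.0% higher and 17.8% lower). In the ERK branch, Mapk3 was higher and Map2k1 lower. The JNK branch had 1 of 9 tested members higher and 3 lower, at 40.3 RPKM ± 1.90 and 42.4 RPKM ± 2.80. In the p38 branch, with its MAPKAPKs, 2 of 7 tested members were higher and none lower, also at an unadjusted p and with DESeq2 (69.2 RPKM ± 4.37 and 76.5 RPKM ± 5.68). With the GC and length offset, Mapkapk2 was lost (0.32), Mapkapk3 stayed higher (0.58), and Mapk14 (-0.27) and Map2k3 (-0.25) passed as lower. The ERK5 branch had 1 of 4 higher (Mapk7) and 1 lower (Map3k2), at 12.4 RPKM ± 0.517 and 12.3 RPKM ± 1.03. The MAP3Ks that feed both JNK and p38 had 2 of 11 tested members in each direction. The summed CPM of all members was between 1067 and 1122 in PF and between 1072 and 1175 in AF livers.

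Of the 10 genes given liver by liver, 8 have groups that do not overlap, which by itself puts an exact permutation test at or next to its smallest p, so none is given for them. For Mapk9 and Mapk14, whose groups overlap, the exact two-sided permutation test of the mean log2 CPM over all splits of the livers, without adjustment, gave p = 0.00884 and p = 0.0694. Across the 16 called members, the AF liver closest to the PF values was AF5 for 9, AF6 for 6 and AF2 for 1. AF6 was the closest for Map4k4, Mapk3, Map3k12 and Mapkapk3, and AF5 for Mapk7, Map3k11, Map3k14 and Mapkapk2.

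The GC content of the genes moved with their direction. The GC content was taken over the bases of all annotated transcripts of a gene. The 8 members higher in AF had a median of 56.4%, the 8 lower members 45.3% and the other 26 members 52.8%. Over all tested genes the medians were 52.4%, 46.6% and 49.6%. Across the 42 members, which share the same libraries, the log2 fold change and the GC content had r = 0.35 and rho = 0.52, and across 14157 genes r = 0.19 and rho = 0.27. Mapk15, with 62.9% GC, and Map2k1, with 50.9%, were lower and had a higher GC content than the other 6 members that fell. With an offset for the trend in GC content and length, 8 members were higher and 9 lower, and 12 of the 16 calls were kept. Mapk8, Map3k7, Map3k11 and Mapkapk2 were lost, Mapk9 and Map4k3 became higher, and Mapk14, Map2k3 and Map2k7 became lower. Map4k4 (1.98), Mapk3 (0.73) and Mapk7 (0.78) kept their direction and call.

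**Figure D5:**
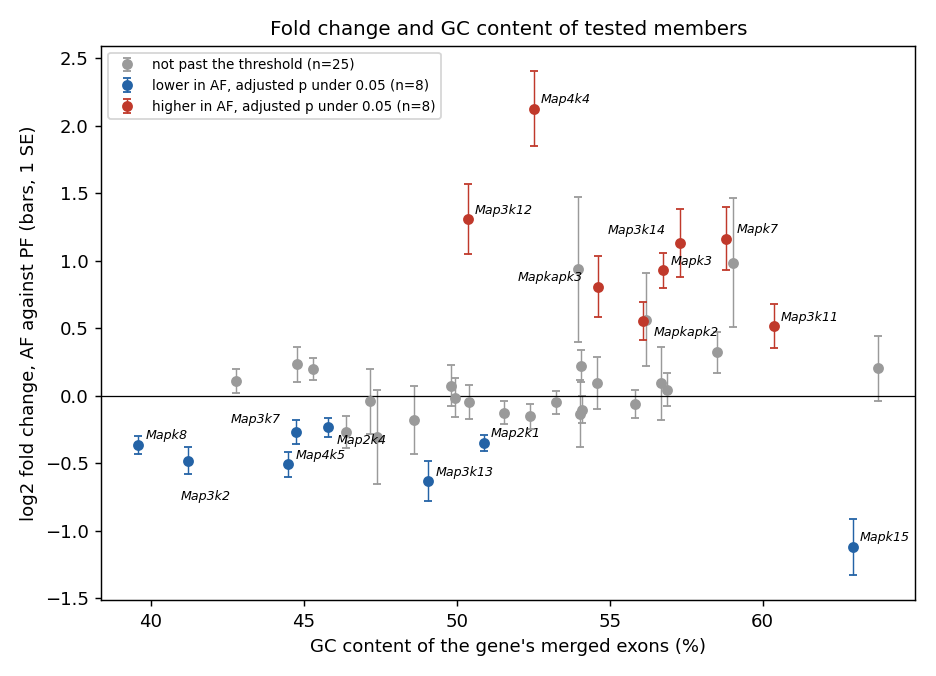
The log2 fold change (y axis, bars of 1 SE) of tested members is drawn against their GC content (x axis, percent), with the called members named. The GC content is that of all annotated transcripts of a gene, although the axis label names merged exons. Points rise to the right, and Mapk15, at 62.9% GC and -1.12, is the point farthest below that run.

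Other genes of the pathway were counted in lists that hold no member. Of 13 tested scaffolds and adaptors, 9 were higher and none lower (edgeR), where 22.0% of all tested genes were higher and 17.8% lower. Without AF1, 7 scaffolds and adaptors were higher and 0 lower, and without PF1, 8 were higher and 1 lower. The largest rises were those of Ksr2 (1.37), a scaffold of the RAF, MEK and ERK relay, Mapk8ip1 (1.31), a JNK scaffold, and Tab1 (1.04), the partner of TAK1. Of 7 tested kinases downstream of ERK and p38, 4 were higher and none lower, among them Rps6ka4 (MSK2) with 0.91 and Mknk1 with 0.82. At an unadjusted p under 0.05, 1 gene of each of these lists was lower, and with DESeq2 1 scaffold and 0 downstream kinases were. The median log2 fold changes of these lists were 0.41 and 0.63, against 0.04 for all genes. Of 15 genes for RAS, its regulators and the RAF kinases, 2 were higher (Rras2, 0.64, and Nras, 0.35) and 2 lower (Sos1, -0.42, and Braf, -0.37), counts that became 8 and 0 with library totals. The median of this list was -0.0012. Of 9 genes whose proteins bind MAP3Ks, 3 were higher, led by Gadd45a (2.31) and Gadd45b (1.44), activators of MEKK4, and Tank was lower (-0.29). Their median was -0.066. Without AF1, 2 of these genes were higher and none lower (edgeR), 1 being lower at an unadjusted p under 0.05.

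Of the genes that act against the kinases, 4 of 9 tested MAP kinase phosphatases were higher, led by Dusp4 (2.51), Dusp8 (2.31) and Dusp5 (2.26), and only Dusp1 was lower. Of all tested genes, 22.0% were higher. AF1 stood apart in this list, with a summed level of 325 CPM against 175 to 185 CPM in the other 6 AF livers. Among PF livers PF2 was the highest at 259 CPM, and the others lay between 159 and 189 CPM. Dusp8 was at 26.1 CPM in AF1 and 1.80 to 7.84 CPM in the other AF livers, and Dusp5 at 11.2 CPM and 2.00 to 3.77 CPM. Without AF1 the list again had 4 genes higher and 1 lower, with Dusp4 at 2.25, Dusp5 at 1.67 and Dusp8 at 1.63. Dusp1 was at 55.3 CPM ± 39.2 in PF and 17.9 CPM ± 6.07 in AF livers (log2 fold change -1.63 ± 0.37, adjusted p = 0.00427). Of 13 other tested inhibitors, 4 were higher, Trib3, a pseudokinase that binds MAP2Ks, most of all (4.22, from 2.53 CPM ± 1.00 to 46.9 CPM ± 28.0), and the phosphatase Ppm1b was lower (-0.58). Of 13 nuclear substrates, 4 were higher, led by Myc (2.16) and Ets2 (1.33), and 3 were lower, with Fos at -1.63 ± 0.60 (adjusted p = 0.0440). Here too AF1 stood apart, with a sum of 478 CPM against 281 to 304 CPM in the other AF livers and 239 to 293 CPM in PF livers, and Myc at 37.3 CPM against 9.54 to 11.7 CPM in the other AF livers. Without AF1, 3 substrates were higher and 2 lower, with Myc at 1.71 and Ets2 at 1.09, and without PF1, 4 were higher and 1 lower. The medians were 0.61 for the phosphatases, 0.26 for the other inhibitors and 0.29 for the nuclear substrates. With library totals, 6 phosphatases, 9 other inhibitors and 7 nuclear substrates were higher, and 1, 1 and 0 lower. The lists were described by counts and medians and were not tested as sets.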

How the data were processed

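Whole-liver mRNA of 12 male mice was sequenced, each in its own library. Raw read counts per Ensembl gene were deposited by the authors. Per the labels and the study's methods, poly(A) RNA was selected, libraries were made with a TruSeq stranded kit, reads were checked with FastQC 0.10.1, aligned with TopHat2 2.0.13 to mouse assembly GRCm38 and counted with HTSeq 0.10.0. The annotation release and the strand setting are not given in the sources used here. Reads of genes that overlap can therefore be assigned differently from their true source. The study's own test, Cuffdiff2, needs reads and was not run.

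Columns were matched to mice by group and replicate number. GENCODE release M21 named 54165 of the 54232 IDs and gave coordinates, merged exon lengths and the GC content over all transcripts of a gene. Calculations used R 4.3.3 with edgeR 4.0.16 (TMM factors, filterByExpr by group, quasi-likelihood test for AF minus PF with no covariate, Benjamini-Hochberg adjustment over 14168 genes, threshold 0.05). Fold changes are log2 values with a prior count of 0.125, and SEs were derived from the F statistic. Ratios used counts plus 0.5, and single genes log2(CPM + 0.1), in exact permutation tests over all splits of the livers (smallest p 0.00126). The alternatives were DESeq2 1.42.0, limma 3.58.1 (voom, with and without sample weights), RLE and upper-quartile factors, library totals, robust dispersion, 2 other filters, an offset for GC content and length, thinning of all libraries to the smallest, the replicate number as a block, and each library left out in turn. Depth was 24129900 to 30578639 reads, and the reads carry no molecular identifiers. Libraries of a group were checked for repeated material, and all 31 pairs differed by far more than counting noise (at least 21.1 times). The steps were tested on simulated data.

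Members are named, except 1 that is not reported here by itself or in a ratio and enters only counts, medians, sums and p adjustments. The terminal kinases Mapk3, Mapk8, Mapk9 and Mapk14, and called members whose groups do not overlap (up to 12), are given by liver. At most 3 called genes are named per pathway list, and Dusp1 because the study is about it. The members, lists and tests were chosen with earlier results of these data known. RefSeq promoter windows (GRCm38.p6) were matched by symbol, with the window nearest to the GENCODE start.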

Additional observations from a re-analysis of the deposited data

Results flagged for a closer look

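In 5 of 82 groups of values (41 members in PF and AF livers), a single liver stood apart from the rest of its group by Dixon's criterion, and chance gives about 1 in 20 groups, or 4.1. In PF livers these were Mapk4 in PF2 (1.098 CPM, next value 0.5906) and Map2k4 in PF2 (55.41 CPM, next 62.75). In AF livers they were Mapk4 in AF6 (3.574 CPM, next 1.442), Map3k4 in AF6 (15.15 CPM, next 19.04) and Map3k10 in AF7 (4.819 CPM, next 3.007). Of these genes Map2k4 was called, and its call was kept without PF2.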

How the results depend on the processing

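The direction of the smaller changes depended on scaling. With library totals in place of TMM factors, 16 members were higher and 1 lower, and Mapk8 (0.0045), Map2k1 (0.015), Map2k4 (0.13) and Map3k7 (0.086) changed sign. Under that scaling 7396 genes passed, 6458 of them higher. The RAS and RAF list then had 8 genes higher and 0 lower, the nuclear substrates 7 and 0, the other inhibitors 9 and 1, and the MAP kinase phosphatases 6 and 1. In the other 23 alternatives 7 to 10 members were higher and 6 to 10 lower, and 4642 to 7513 genes passed in all. When single libraries were left out, 7 to 8 members were higher and 6 to 9 lower. Of the 16 called members, 7 kept their call under all 24 alternatives and 4 more under all but library totals. Of the other 26, 14 passed in some alternative, among them Map3k6 and Map4k1 with voom sample weights, and 12 in none. Map2k2 to Map2k1 was the ratio whose call was lost, with the GC and length trend removed (0.32), a step in which the ratio with Mapk13 had no value. The ratio of Mapk9 to Mapk8 passed with each library left out in turn (0.55 to 0.59).

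The replicate numbers did not pair the livers. Deviations of livers with the same number had correlations between -0.0749 and 0.117. With the number as a block, a fit that also leaves out AF6 and AF7 since it needs replicates 1 to 5, 6256 genes passed, and 7 members were higher and 7 lower, of which 13 calls were shared with the fit without the block. Mapk13, Map3k9 and Map3k19 were under the count filter and did not pass in the alternatives that tested them, and Mapk10 had no reads.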
